A study of Mus musculus with 19 samples.

Results

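The immediate early response was followed in mouse dorsal root ganglia (DRG), which hold the cell bodies of sensory neurons, through 10 genes: Fos, Fosb, Junb, Egr1, Egr3, Ier2, Nr4a1, Arc, Dusp1 and Klf6. They were taken by gene symbol from the deposited table of counts and FPKM, in which they are 10 of 36682 genes, and all 10 passed the filter on low counts that left 22778 tested genes. The 19 libraries each came from the pooled L3 to L5 ganglia of 1 male mouse. Every mouse was homozygous for the MaFIA transgene (macrophage Fas-induced apoptosis), in which the Csf1r promoter drives a receptor designed to let the dimerizer AP20187 trigger death of macrophages and other myeloid cells. DMM mice were operated to destabilize the medial meniscus of a knee, which models osteoarthritis, and were injected intraperitoneally 8 weeks later with AP20187 (n = 5, mice 58 to 62) or vehicle (n = 5, mice 32, 33, 34, 63 and 64). Naive mice of matching age were injected with AP20187 (n = 4, mice 1, 3, 4 and 5) or vehicle (n = 5, mice 1 to 5). Injections were daily for 5 days, and DMM ganglia were from the side of the operated knee. Mouse age is not given in the labels, and sham-operated or transgene-free mice were not analysed here.

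Immediate early genes are transcribed within minutes of a stimulus, with no need for new protein synthesis, because the transcription factors that start them (SRF with its ternary complex partners, and CREB) already sit in the cell and are switched on by phosphorylation. In sensory neurons they follow calcium entry and MAP kinase signalling, and they also answer growth factors, cytokines, glucocorticoids and tissue handling in glia, endothelium and leukocytes. Fos, Fosb and Junb code for subunits of the dimeric factor AP-1. Egr1, Egr3 and Klf6 code for zinc finger factors, Nr4a1 for an orphan nuclear receptor, and Ier2 for a small nuclear regulator. Arc codes for a protein of neuronal synapses, and Dusp1 for a phosphatase that switches MAP kinases off.

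RefSeq promoter sequence (build GRCm38.p6) was matched for 6 of the 10 members, and 4 are shown for what the letters share or lack. These are the 250 bases before the start of Fos, Junb and Klf6, which were higher with AP20187 in DMM mice, and of Dusp1, whose test was not passed. Capitals mark the CRE core TGACG on either strand, the full palindromic CRE TGACGTCA that contains it, and the TATA box TATAAA. The windows are chr12:85473640-85473889 on the plus strand for Fos, chr8:84978749-84978998 on the minus strand for Junb, chr17:26508473-26508722 on the minus strand for Dusp1 and chr13:5861239-5861488 on the plus strand for Klf6.
Fos: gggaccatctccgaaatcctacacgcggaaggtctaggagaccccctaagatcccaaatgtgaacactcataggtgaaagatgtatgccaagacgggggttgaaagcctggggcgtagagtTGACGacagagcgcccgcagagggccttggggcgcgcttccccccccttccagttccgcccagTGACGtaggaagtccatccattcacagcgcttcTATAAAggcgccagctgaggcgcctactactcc
Junb: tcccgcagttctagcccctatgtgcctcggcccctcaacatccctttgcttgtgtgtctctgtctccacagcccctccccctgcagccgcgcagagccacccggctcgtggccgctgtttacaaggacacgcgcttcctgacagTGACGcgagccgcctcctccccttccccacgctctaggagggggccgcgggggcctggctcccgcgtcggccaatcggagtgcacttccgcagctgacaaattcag
Dusp1: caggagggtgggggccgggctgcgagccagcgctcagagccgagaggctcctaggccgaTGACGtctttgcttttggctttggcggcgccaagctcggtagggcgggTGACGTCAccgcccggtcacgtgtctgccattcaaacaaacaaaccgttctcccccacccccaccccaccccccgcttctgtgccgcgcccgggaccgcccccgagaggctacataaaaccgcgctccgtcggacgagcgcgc
Klf6: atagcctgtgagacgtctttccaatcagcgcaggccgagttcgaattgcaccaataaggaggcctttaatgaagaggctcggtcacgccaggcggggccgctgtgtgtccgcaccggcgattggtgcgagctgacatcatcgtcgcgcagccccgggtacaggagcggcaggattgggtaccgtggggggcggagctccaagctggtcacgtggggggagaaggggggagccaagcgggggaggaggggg
The CRE core was in 5 of the 6 matched windows (Fos, Fosb, Junb, Nr4a1 and Dusp1, but not Klf6), and in 17.8% of 32851 promoter windows of the same length. The full CRE was in Dusp1 alone of the 6, against 1.55% of all windows, and TATAAA in Fos alone, against 12.4%. The EGR motif GCGNGGGCG was in Fosb and Nr4a1, against 4.70%. No match was found in the 6 windows for the AP-1 motif TGANTCA, the NR4A motif AAAGGTCA or the CArG box. Sequence beyond these 250 bases was not searched, so sites farther from the start would be missed. All 6 windows had more G and C (58.4% to 74.4%) than the median window (52.4%).

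Libraries held 60984830 to 74691396 counts. Levels below are counts scaled to library size (CPM, with TMM scaling). Differences are edgeR log2 fold changes (log2FC) with the standard error (SE) or 95% interval. Their p-values were adjusted by Benjamini-Hochberg across the 22778 tested genes, with 0.05 as the threshold. The p-values measure the spread between mice. Markers of other cells than neurons moved with the treatment. Of all tested genes, 11.3% were called higher and 12.4% lower with AP20187 in DMM mice, and 8.61% and 2.57% in naive mice. The marker counts that follow stand against these shares, and some are near them. Of 15 neutrophil and precursor markers, 11 were higher with AP20187 in DMM mice and 12 in naive mice, none lower in either, and their summed level was 17400 to 30200 CPM in DMM AP20187 mice, 426 to 8390 in DMM vehicle mice, 8270 to 28100 in naive AP20187 mice and 918 to 2440 in naive vehicle mice. Of 15 pan-neuronal markers, 10 were lower with AP20187 in DMM mice and 0 in naive mice, where 1 had an unadjusted edgeR p under 0.05; summed levels were 2330 to 9290, 6660 to 18600, 3130 to 15500 and 10100 to 21500 CPM in the same group order. None of 12 macrophage markers was lower with AP20187 (1 was higher in DMM and 4 in naive mice, with median log2FC of 1.06 and 1.38, and their summed level in DMM mice had a median of 792 CPM with AP20187 and 240 with vehicle), and all neuronal and neutrophil markers were above 0 in each group. Of 11 proliferation markers, 11 were higher with AP20187 in DMM mice and 9 in naive mice, and of 11 B lineage markers 9 and 8 were lower. Of 8 monocyte markers 4 and 3 were higher and 1 and 1 lower, and in DMM mice they summed to 3380 to 8830 CPM with AP20187 and 225 to 1820 with vehicle. Of 10 endothelial markers 4 and 3 were higher. Of 9 erythroid markers 5, and of 9 myelinating Schwann cell markers 4, were lower in DMM mice and 0 in naive mice with edgeR (there 1 and 0 had an unadjusted p under 0.05). Of 10 skeletal muscle markers 4 were higher with AP20187 in naive mice, where they summed to 2020 to 3110 CPM against 15.2 to 524 with vehicle, and 2 were lower in DMM mice. The mitochondrial share of counts was 8.89% to 14.8% with AP20187 and 5.08% to 10.03% with vehicle. The part of these shifts in the results below was not tested. In whole ganglia more cells of a type cannot be told apart from more RNA per cell, nor from tissue beside the ganglia collected with them. Vehicle mouse 64 among DMM mice and AP20187 mouse 3 among naive mice stood apart in several members, and values without each are given for the members that it moved most.

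**Figure D1:**
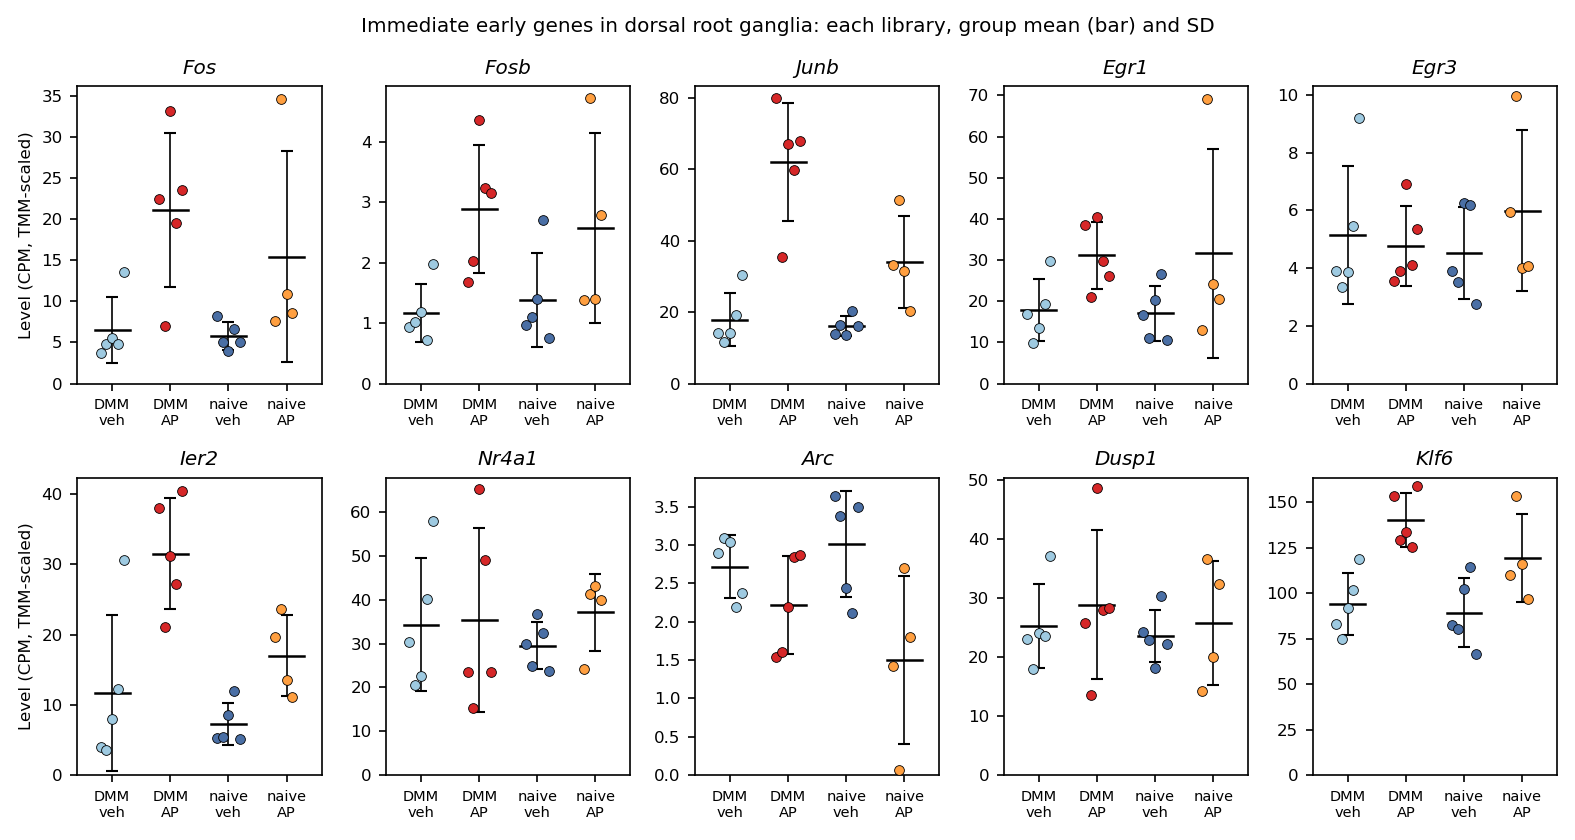
Levels of the 10 members (CPM, linear axis from 0) in each of the 4 groups; points are libraries, bars the group mean and error bars the SD. The 5 DMM mice given AP20187 lie between 35.4 and 79.9 CPM for Junb and the 5 given vehicle between 11.5 and 30.3.

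Compared per gene length, in mean FPKM, Klf6 stood highest of the 10 in every group and Fosb lowest, with Egr3 and Arc just above Fosb. Klf6 was at 31.0 FPKM in DMM AP20187 mice, 21.5 in DMM vehicle mice, 23.3 in naive AP20187 mice and 19.9 in naive vehicle mice, and Fosb at 0.445, 0.186, 0.352 and 0.215. The order between them was not the same in all groups. With AP20187 the next places went to Junb (26.3 FPKM in DMM, 12.6 in naive) and Ier2 (20.1 and 9.49). With vehicle Nr4a1 came second (9.84 in DMM, 8.23 in naive). Neighbours in the order mostly overlapped over mice: in DMM AP20187 mice only Egr1 (6.81) and Egr3 (1.04) had separate ranges, and in DMM vehicle mice only Arc (0.883) and Fosb. In naive mice the ranges parted between Klf6 and the next gene, between Fos and Egr3 and, with AP20187, between Egr3 (1.15) and Arc (0.427) or, with vehicle, between Arc (0.958) and Fosb.

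In DMM mice, AP20187 went with higher Fos, Fosb, Junb, Ier2 and Klf6, which rose 1.49-fold to 3.47-fold over vehicle, while Egr1, Egr3, Nr4a1, Arc and Dusp1 did not pass the test. The comparison asks how DRG transcription differed between osteoarthritic mice given AP20187, a treatment meant to deplete macrophages, and those given vehicle. Of the 10 members 5 were called, all higher, where 23.8% of all tested genes were called and 11.3% were called higher. With each library left out in turn, 2 to 6 members and 3212 to 7677 genes were called. The count also changed with the set of vehicle mice, as given below. The members' median log2FC was 0.69 and that of all tested genes -0.10. In 2 of 10 members, Junb and Klf6, every AP20187 mouse lay above every vehicle mouse, an arrangement found in 8.71% of tested genes.

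Junb (GRCm39 chr8:85701113-85705347, minus strand), an AP-1 partner of the Fos proteins, had the largest difference of the 10 against all vehicle mice. Without vehicle mouse 64 the log2FC of Ier2 (2.18) and Fos (2.16) were above that of Junb (2.07). The span of Junb overlaps Prdx2 on the other strand, and whether the counting used strand is not given in the sources used here. It was at 79.9, 35.4, 67.0, 59.9 and 67.8 CPM in DMM mice 58 to 62 given AP20187, and at 14.3, 11.5, 14.0, 19.3 and 30.3 CPM in vehicle mice 32, 33, 34, 63 and 64. The ranges did not overlap, although mouse 59 (35.4 CPM) and mouse 64 (30.3 CPM) came close. The means were 62.0 ± 16.5 and 17.9 ± 7.48 CPM (SD, n = 5 each), a 3.47-fold difference (log2FC 1.79, SE 0.28, edgeR adjusted p = 0.000464). In naive mice Junb was at 33.1, 51.4, 31.6 and 20.2 CPM in AP20187 mice 1, 3, 4 and 5, and at 13.8, 16.5, 13.5, 20.4 and 16.2 CPM in vehicle mice 1 to 5. It was the 1 member called there (2.12-fold, log2FC 1.08, SE 0.29, edgeR adjusted p = 0.0225): 4 of 4 AP20187 mice lay above the vehicle mean, and AP20187 mouse 5 lay just under vehicle mouse 4. That call was lost without AP20187 mouse 1, AP20187 mouse 3, vehicle mouse 1 or vehicle mouse 2, with edgeR adjusted p of 0.051 to 0.123 and the lowest log2FC, 0.80, without AP20187 mouse 3.

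Fos (chr12:85520664-85524047, plus strand) codes for a protein that binds DNA as a dimer with a Jun protein. It was at 22.4, 7.06, 33.2, 19.6 and 23.6 CPM in DMM mice given AP20187 and at 3.73, 4.78, 5.54, 4.84 and 13.6 CPM in DMM vehicle mice. Vehicle mouse 64 lay above AP20187 mouse 59, so the groups overlapped by these 2 mice. The means were 21.2 ± 9.40 and 6.50 ± 4.02 CPM (SD, n = 5 each), a 3.26-fold difference (log2FC 1.70, SE 0.46, edgeR adjusted p = 0.0143), and 5 of 5 AP20187 mice lay above the vehicle mean. In naive mice Fos was at 7.66, 34.6, 10.9 and 8.57 CPM with AP20187 and at 8.23, 5.02, 3.92, 6.70 and 5.03 CPM with vehicle. AP20187 mouse 3 stood far above the other 3. The log2FC of 1.42 (interval 0.42 to 2.42, edgeR adjusted p = 0.061) did not pass, became 0.63 without AP20187 mouse 3, and passed without AP20187 mouse 5 (1.63, edgeR adjusted p = 0.0388).

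Fosb (chr7:19036621-19043976, minus strand), a paralog of Fos, was low in every group. It was at 1.68, 2.03, 4.35, 3.24 and 3.14 CPM with AP20187 and at 0.941, 1.02, 1.18, 0.725 and 1.97 CPM with vehicle. Vehicle mouse 64 was again the highest of its group, between AP20187 mice 58 and 59. Fosb was 2.47-fold higher with AP20187 (log2FC 1.31, SE 0.42, edgeR adjusted p = 0.0329), and the call was lost without AP20187 mouse 60 or 62 or vehicle mouse 32, 33, 34 or 63 (edgeR adjusted p of 0.0588 to 0.0843). In naive mice the means were 2.57 ± 1.57 (SD, n = 4) and 1.39 ± 0.778 CPM (SD, n = 5), and the log2FC of 0.89 (interval -0.03 to 1.81) did not pass.

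Ier2 (chr8:85387960-85389483, minus strand) was at 38.0, 21.1, 31.2, 27.2 and 40.4 CPM in DMM mice given AP20187. Among DMM vehicle mice it was at 3.99, 3.596, 8.01, 12.2 and 30.7 CPM. The vehicle mice spanned a wide range, and mouse 64 reached the level of the AP20187 mice. Ier2 was 2.70-fold higher with AP20187 (log2FC 1.43, SE 0.46, edgeR adjusted p = 0.0331), and 5 of 5 AP20187 mice lay above the vehicle mean of 11.7 CPM. The call was lost without AP20187 mouse 58, 60 or 62 or vehicle mouse 32, 33, 34 or 63 (edgeR adjusted p of 0.0539 to 0.076), and without vehicle mouse 64 the log2FC was 2.18. In naive mice Ier2 was at 19.7, 23.7, 13.6 and 11.1 CPM with AP20187 and at 5.33, 5.396, 8.59, 11.97 and 5.13 CPM with vehicle. Vehicle mouse 4 lay above AP20187 mouse 5, and the log2FC of 1.22 (interval 0.21 to 2.24, edgeR adjusted p = 0.106) did not pass.

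Klf6 (chr13:5911481-5920393, plus strand), a Krüppel-like factor of many cell types, had a small and even difference. It was at 153.6, 129.6, 133.9, 125.4 and 159.1 CPM in DMM mice given AP20187 and at 83.0, 74.8, 92.1, 101.8 and 119.0 CPM in DMM vehicle mice, with no overlap. The means were 140.3 ± 15.1 and 94.1 ± 17.2 CPM (SD, n = 5 each), a 1.49-fold difference (log2FC 0.58, SE 0.17, edgeR adjusted p = 0.0223). Leaving out AP20187 mouse 58 or 62 or vehicle mouse 33 moved the edgeR adjusted p to between 0.052 and 0.063, so that the call was lost. In naive mice the ranges overlapped, at 97.0 to 153.6 CPM with AP20187 and 66.4 to 114.3 CPM with vehicle, and the log2FC was 0.42 (interval 0.04 to 0.79, edgeR adjusted p = 0.133).

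Egr1 and Egr3, zinc finger factors that share a DNA motif and answer neuronal activity, did not pass in either comparison. Egr1 was at 38.4, 21.1, 40.4, 29.7 and 26.1 CPM in DMM mice given AP20187 and at 16.9, 9.92, 13.4, 19.3 and 29.8 CPM in DMM vehicle mice, and 5 of 5 AP20187 mice lay above the vehicle mean. Vehicle mouse 64 lay above 3 of the 5 AP20187 mice. The log2FC was 0.80 (interval -0.02 to 1.62, edgeR adjusted p = 0.143), and without vehicle mouse 64 it was 1.07 and passed (edgeR adjusted p = 0.0485). In naive mice Egr1 was at 13.1, 69.2, 24.1 and 20.4 CPM with AP20187 and at 10.6 to 26.6 CPM with vehicle, and the log2FC of 0.90 became 0.18 without AP20187 mouse 3. Egr3 lay between 2.77 and 9.95 CPM in all 19 libraries; its log2FC was -0.12 in DMM mice (interval -0.81 to 0.58) and 0.40 in naive mice (interval -0.33 to 1.14).

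Nr4a1 and Dusp1 overlapped between treatments throughout. Nr4a1 (chr15:101152150-101172676, plus strand), whose gene answers calcium and cAMP, was at 23.5, 15.4, 65.3, 49.0 and 23.6 CPM in DMM mice given AP20187 and at 30.5, 20.5, 22.7, 40.2 and 57.9 CPM in DMM vehicle mice. The AP20187 mice held both the lowest and the highest of these 10 values, and the means differed by less than the spread (35.4 ± 21.0 and 34.3 ± 15.2 CPM, SD, n = 5 each). Its log2FC was 0.04 (interval -0.68 to 0.76) in DMM and 0.33 (interval -0.43 to 1.09) in naive mice. Dusp1 was at 13.5 to 48.6 CPM with AP20187 and 18.0 to 37.2 CPM with vehicle in DMM mice, with a log2FC of 0.20 (interval -0.42 to 0.81). In naive mice its range was 14.2 to 36.6 CPM with AP20187 and 18.2 to 30.4 CPM with vehicle, with a log2FC of 0.13 (interval -0.52 to 0.78). The annotated span of Dusp1 (chr17:26724564-26781102, minus strand) overlaps 2 other genes on its own strand and that of Nr4a1 overlaps 1, so these counts may be split between them. Dusp1 also overlaps 3 genes on the other strand, so without strand in the counting its reads could not be told apart from theirs.

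Arc (chr15:74540932-74544419, minus strand), a gene of activated neurons in the brain, was the member with a negative log2FC in both treatment comparisons, though neither passed. In naive mice it was at 1.42, 0.0676 (4 counts), 2.71 and 1.80 CPM with AP20187 and at 3.63, 3.37, 2.44, 2.11 and 3.50 CPM with vehicle. All 4 AP20187 mice lay under the vehicle mean of 3.01 CPM, and mouse 3 was nearly without Arc counts. The log2FC was -1.01 (interval -2.12 to 0.11, edgeR adjusted p = 0.216), and -0.63 without AP20187 mouse 3. On the FPKM scale it passed with limma (-0.48 on log2(FPKM + 1), limma adjusted p = 0.0223, and -1.30 on log2(FPKM + 0.1), limma adjusted p = 0.0348). In DMM mice the levels were 1.55 to 2.87 CPM with AP20187 and 2.19 to 3.09 CPM with vehicle (log2FC -0.30, interval -1.32 to 0.73).

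**Figure D2:**
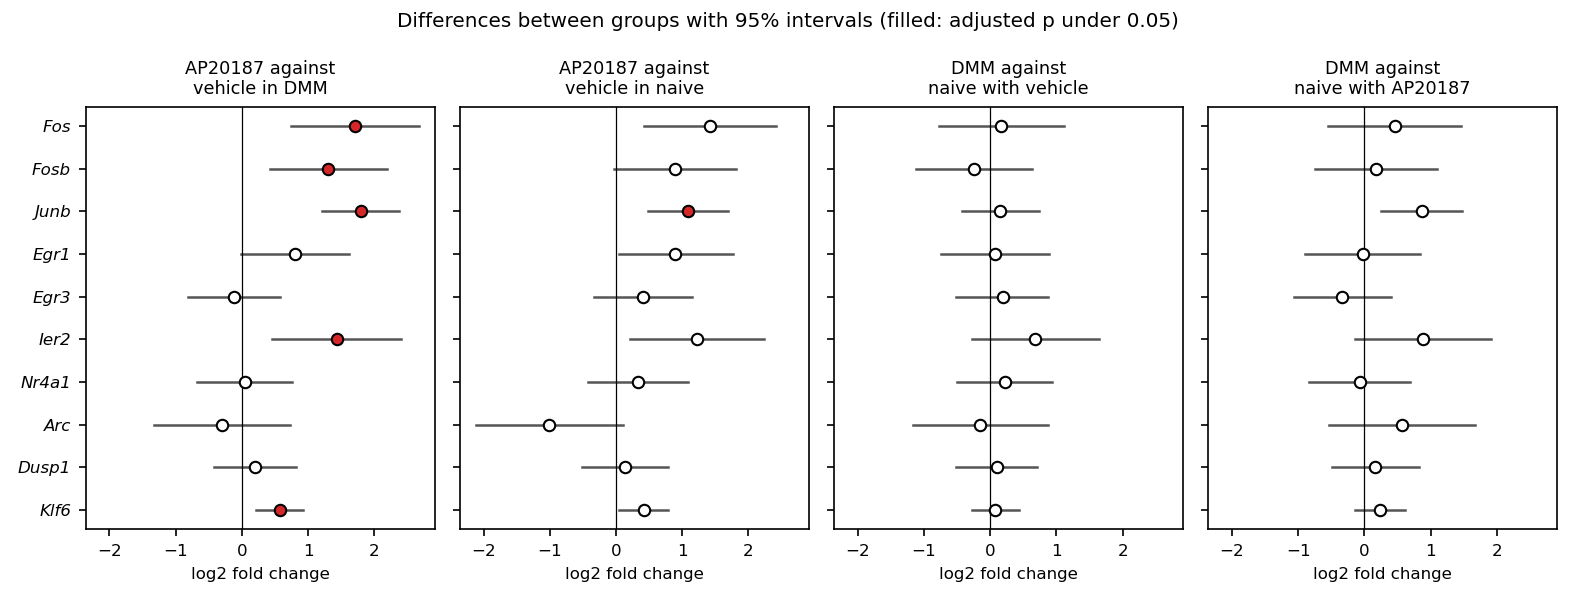
log2FC of the 10 members with 95% intervals in 4 comparisons, one per panel; filled points have an edgeR adjusted p under 0.05. Of the 5 filled points for AP20187 against vehicle in DMM mice all are above 0, and in naive mice Junb alone is filled.

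In naive mice, then, Junb was the 1 of 10 members called with AP20187, where 11.2% of tested genes were called and 8.61% were called higher. The members' median log2FC was 0.66 and that of all tested genes -0.07, 5 members (Fos, Junb, Egr1, Ier2 and Klf6) had an unadjusted edgeR p under 0.05 (28.8% of all tested genes did), and in none did the groups separate (9.39% of genes separated upward and 6.15% downward). Without AP20187 mouse 3 the log2FC were 0.63 for Fos, 0.44 for Fosb, 0.80 for Junb, 0.18 for Egr1, 0.045 for Egr3, 1.02 for Ier2, 0.28 for Nr4a1, -0.63 for Arc, -0.089 for Dusp1 and 0.27 for Klf6, and 0 of 10 were called. The result for Junb depended on the scale: limma gave 0.76 on log2(FPKM + 1) (adjusted p = 0.0545) and 0.83 on log2(FPKM + 0.1) (adjusted p = 0.0507). The split of all called genes moved as well: 77% of calls were higher with TMM scaling, 62.9% with library totals alone, and 39.2% and 39.6% on the 2 FPKM scales. In DMM mice the share of higher calls was 47.7% and stayed between 42.2% and 51% under those scalings and RLE size factors (74.7% in naive mice with the latter), and all 5 called members kept their calls.

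No member was called between DMM and naive mice. Between DMM and naive mice given vehicle, 0 of 10 passed with edgeR and 0 with DESeq2 or limma, and 0% of the 22778 genes were called. No member had an unadjusted edgeR p under 0.05, against 377 of all genes. The log2FC ranged from -0.25 for Fosb to 0.68 for Ier2 (interval -0.28 to 1.64), with a median of 0.13. The positive values rested on vehicle mouse 64: without it all 10 members were negative, from -0.52 for Fosb to -0.022 for Klf6, and Ier2 was at -0.066. With only mice 63 and 64 as the DMM vehicle group, Ier2 was instead called as higher in DMM mice, as given further below. Among AP20187 mice, 0 of 10 passed with edgeR or DESeq2, against 0.702% of tested genes with edgeR, and 1 had an unadjusted edgeR p under 0.05, as did 16.7% of all tested genes. This was Junb: 5 of 5 DMM mice lay above the naive mean of 34.1 CPM (log2FC 0.86, interval 0.25 to 1.48, edgeR adjusted p = 0.16), and on the FPKM scales it passed (limma log2FC of 1.01, adjusted p = 0.0353, and 1.06, adjusted p = 0.0439). Without naive AP20187 mouse 3 Fos went from 0.46 to 1.22, Fosb from 0.17 to 0.62, Egr1 from -0.025 to 0.69, Egr3 from -0.33 to 0.023, Arc from 0.56 to 0.14 and Junb from 0.86 to 1.13, and 0 of 10 passed. In that comparison the share of higher calls over all genes was 37.5% with TMM, 59% with library totals and 82.6% and 80.8% on the FPKM scales. The test of whether the AP20187 difference itself was unequal between DMM and naive mice passed for 0 of 10 members with edgeR, DESeq2 or limma, against 0.114% of genes with edgeR, and 0 had an unadjusted edgeR p under 0.05, against 7.67% of all genes. Junb again had the smallest p among the members (interaction log2FC 0.71, interval -0.12 to 1.55, edgeR adjusted p = 0.742). Of all calls in that test 42.3% were higher with TMM and 14.3% and 31.4% on the FPKM scales. The interval for Fos (-1.09 to 1.66) and for Ier2 (-1.19 to 1.60) ran to both signs (without DMM vehicle mouse 64 the values were 0.75 and 0.96, and without naive AP20187 mouse 3 they were 1.06 and 0.41). Egr1 turned from -0.095 to 0.17 without the first of these mice and to 0.63 without the other. A response to AP20187 of unequal size in DMM and naive mice was thus not shown for any member. The comparisons share groups of mice, and their values are therefore not independent.

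The DMM vehicle mice carried 2 number series in the labels, 32 to 34 and 63 to 64, and the second continues the numbers of the DMM AP20187 mice (58 to 62). What the series mean is not stated in the labels. All members but Arc were lower in each of mice 32 to 34 than in mouse 64: Fos, for example, was at 3.73 to 5.54 CPM in the first 3, 4.84 in mouse 63 and 13.6 in mouse 64. The neutrophil marker score (mean log2 CPM) was 3.56, 4.31 and 5.91 in mice 32 to 34, 6.32 in mouse 63 and 7.93 in mouse 64. Against mice 63 and 64 alone, 1 of 10 members was called, Junb (log2FC 1.33, edgeR adjusted p = 0.047), and the differences were 1.19 for Fos, 1.09 for Fosb, 0.55 for Ier2 and 0.36 for Klf6. Against mice 32 to 34 alone, 6 of 10 were called: Junb (2.22), Ier2 (2.60), Fos (2.18), Fosb (1.46), Klf6 (0.75) and Egr1 (1.22). Leaving out mouse 64 alone gave Junb 2.07, Ier2 2.18, Fos 2.16, Fosb 1.58, Egr1 1.07 and Klf6 0.68, all called, and Dusp1 0.38, Nr4a1 0.31, Egr3 0.20 and Arc -0.34, not called. The number series and the treatment are thus partly tied, and their parts cannot be told apart for the mice 32 to 34.

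**Figure D3:**
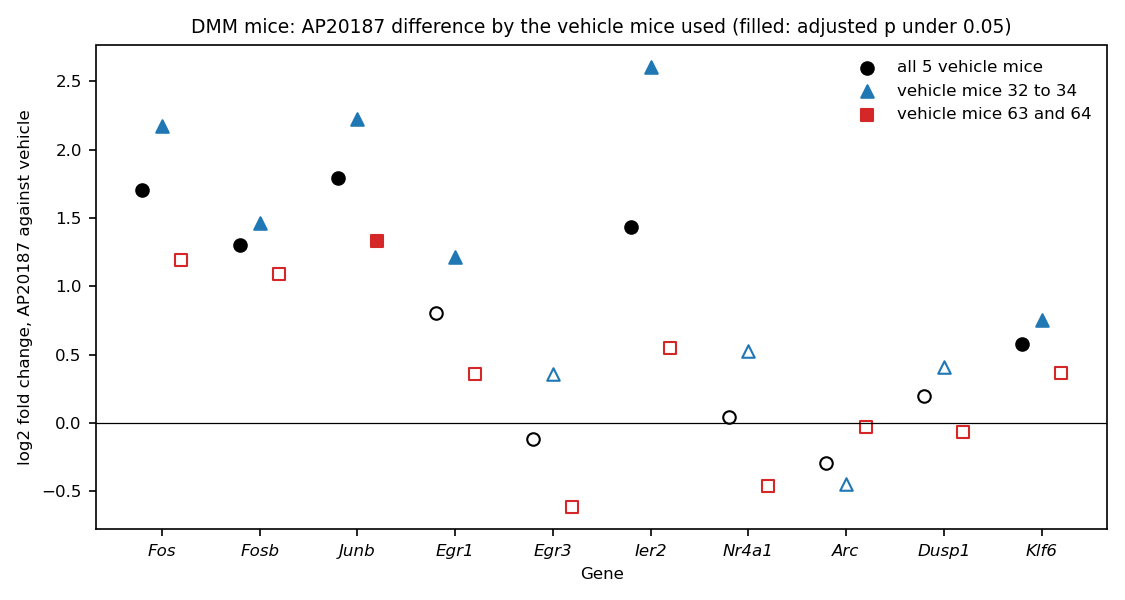
log2FC of each member between DMM mice given AP20187 and all 5 vehicle mice, vehicle mice 32 to 34, or vehicle mice 63 and 64. The Junb value is above 1 in each of the 3 settings (1.79, 2.22 and 1.33), and that of Ier2 goes from 2.60 against mice 32 to 34 to 0.55 against mice 63 and 64.

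Within groups, the level of some members went with that of marker lists, of which the neutrophil list is described first. Deviations of each library from its group mean were correlated over the 19 libraries for 20 relations, with p from 100000 permutations within groups, Benjamini-Hochberg adjusted. The neutrophil score was most spread in DMM vehicle mice (SD 1.72), whose scores rose along the number series. Its SD was 0.376 in DMM AP20187, 0.918 in naive AP20187 and 0.612 in naive vehicle mice. The DMM vehicle mice thus weigh most in these r, which were not computed group by group. Of the 10 members 4 were tied to the neutrophil score, though the share of all tested genes passing such a test was not computed. The closest was Ier2 (Pearson r 0.96, adjusted permutation p = 0.0006, Spearman rho 0.91, adjusted permutation p = 0.0008, and r 0.93 without the 2 libraries of most extreme score). Klf6 followed with r 0.76 (adjusted permutation p = 0.00147, rho 0.79, adjusted permutation p = 0.00553, r 0.80 without those 2), then Egr3 with r 0.73 (adjusted permutation p = 0.00397, rho 0.75, adjusted permutation p = 0.0111, r 0.70 without them). Junb had r 0.70 (adjusted permutation p = 0.0086, rho 0.66, adjusted permutation p = 0.0215, r 0.63 without them). For Fos r was 0.48 (adjusted permutation p = 0.0881, rho 0.39, adjusted permutation p = 0.232) and dropped to 0.23 without the 2 extreme libraries, and for Nr4a1 and Dusp1 it was 0.26 and 0.24, with adjusted permutation p of 0.379 and 0.357. Of the 5 members called in DMM mice, Ier2, Klf6 and Junb thus passed here and Fos and Fosb did not, a difference that was not tested. These relations were not particular to neutrophil markers. Over the 14 marker lists other than the neutrophil and pan-neuronal ones (140 relations, adjusted together), Klf6 passed with a positive r for 9 lists, Egr1 and Egr3 for 8 each, Ier2 for 7, Junb for 3, Nr4a1 for 2, Arc for 1, and Fos, Fosb and Dusp1 for 0. Arc passed with a negative r for 7 lists, and Junb, Egr1, Ier2 and Klf6 for 1 each. For Ier2 r was 0.93 with proliferation (adjusted permutation p = 0.00308, rho 0.91, adjusted permutation p = 0.00408, 0.91 without the 2 extreme libraries) and 0.93 with monocyte markers (adjusted permutation p = 0.00308, rho 0.89, adjusted permutation p = 0.00408, 0.88 without them). It was 0.89 with B lineage markers (adjusted permutation p = 0.00322, rho 0.86, adjusted permutation p = 0.00408, 0.84 without them), although that list was lower with AP20187 while Ier2 was higher in DMM mice. Klf6 was closer to monocyte markers (r 0.83, adjusted permutation p = 0.00308, rho 0.88, adjusted permutation p = 0.00408, 0.85 without them) than to neutrophil markers, by a margin that was not tested.

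Against the pan-neuronal score, 6 of 10 members passed by Pearson r, 5 with a negative sign, and the share of all tested genes was again not computed. Arc alone was positive: r 0.73 (adjusted permutation p = 0.00147), rho 0.82 (adjusted permutation p = 0.0011), and 0.61 without the 2 extreme libraries. Klf6 (r -0.73, adjusted permutation p = 0.00228), Egr1 (r -0.72, adjusted permutation p = 0.00851), Junb (r -0.66, adjusted permutation p = 0.0278), Ier2 (r -0.65, adjusted permutation p = 0.00228) and Egr3 (r -0.63, adjusted permutation p = 0.0229) went the other way. Their rho were -0.69, -0.63, -0.52, -0.62 and -0.62, and that of Junb did not pass (adjusted permutation p = 0.0787). Without the 2 extreme libraries r was -0.71, -0.62, -0.54, -0.73 and -0.81. Naive AP20187 mouse 3, with nearly no Arc counts and the highest Egr1, had a pan-neuronal score of 6.87 against 8.37 to 9.09 in the other 3 of its group.

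**Figure D4:**
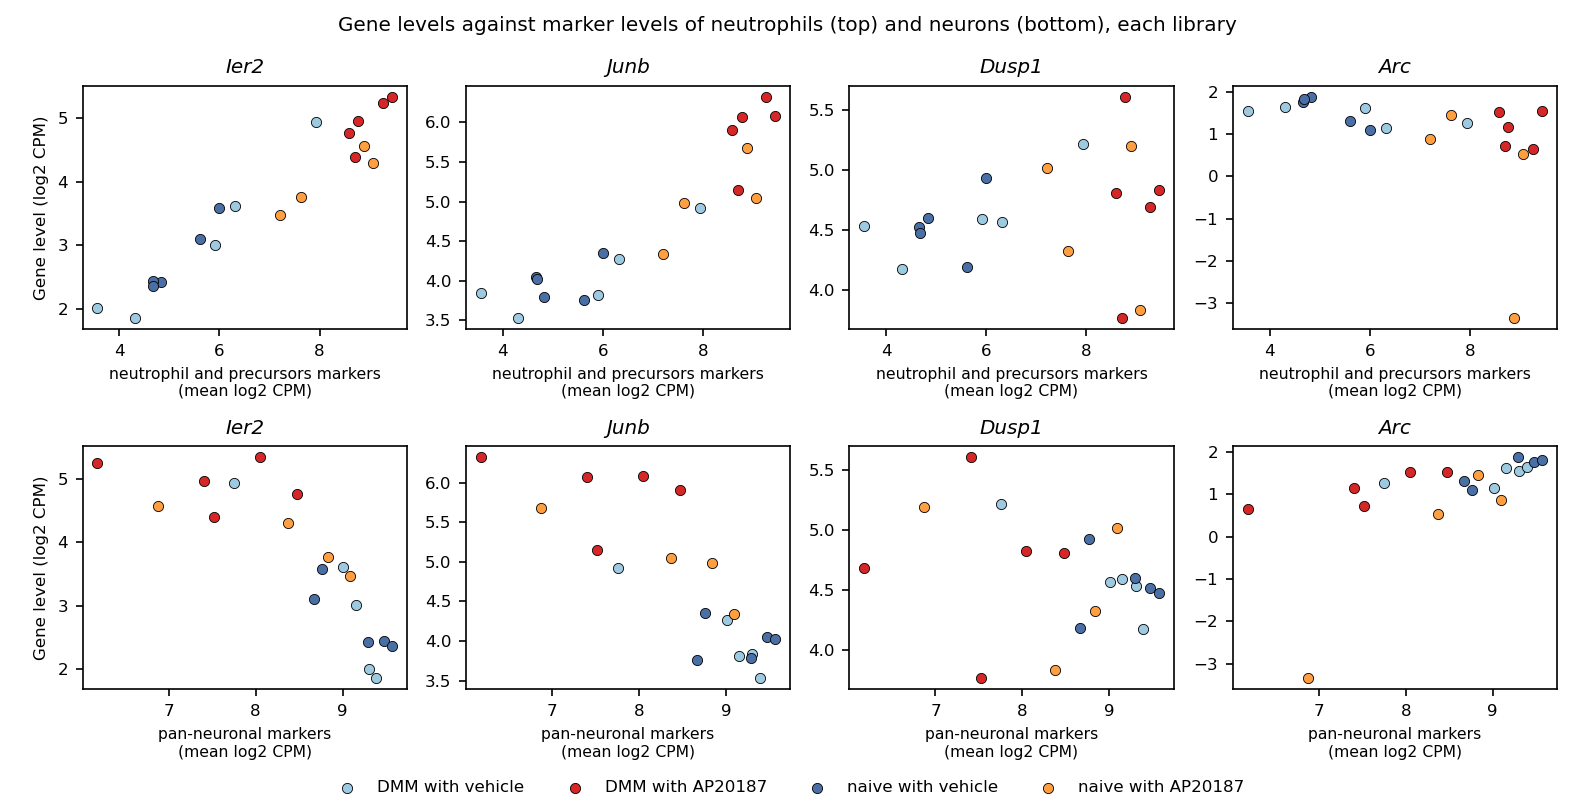
log2 CPM of Ier2, Junb, Dusp1 and Arc (columns) in each of the 19 libraries against the mean log2 CPM of the neutrophil list (top row) and the pan-neuronal list (bottom row); colours are the 4 groups. Ier2 climbs with the neutrophil score within groups (r 0.96 of deviations), Dusp1 shows little of this (r 0.24), and Arc climbs with the pan-neuronal score (r 0.73).

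Among themselves the members mostly moved together from mouse to mouse. Of the 45 pairs, 36 had a positive r of within-group deviations, and 34 passed by Pearson r (30 positive, 4 negative) and 24 by rho, adjusted over the 45. The share that would pass among pairs of other genes was not computed. Ier2 and Klf6 were the closest pair (r 0.83, adjusted permutation p = 0.00045, rho 0.91, adjusted permutation p = 0.0018, and r 0.83 without the 2 extreme libraries). The raw permutation p of that pair, 1e-05, is the smallest these permutations can give. Fos was closest to Dusp1 (r 0.81, adjusted permutation p = 0.0045, rho 0.80, adjusted permutation p = 0.00615, r 0.72 without the extremes), although Fos was called with AP20187 and Dusp1 was not. Fos and Fosb, the 2 paralogs, had r 0.61 (adjusted permutation p = 0.02, rho 0.50, adjusted permutation p = 0.0738, r 0.51 without the extremes). The 9 negative pairs were those of Arc, of which Egr1 was the most negative (r -0.68, adjusted permutation p = 0.0487, rho -0.63, adjusted permutation p = 0.0294, r -0.58 without the extremes).

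**Figure D5:**
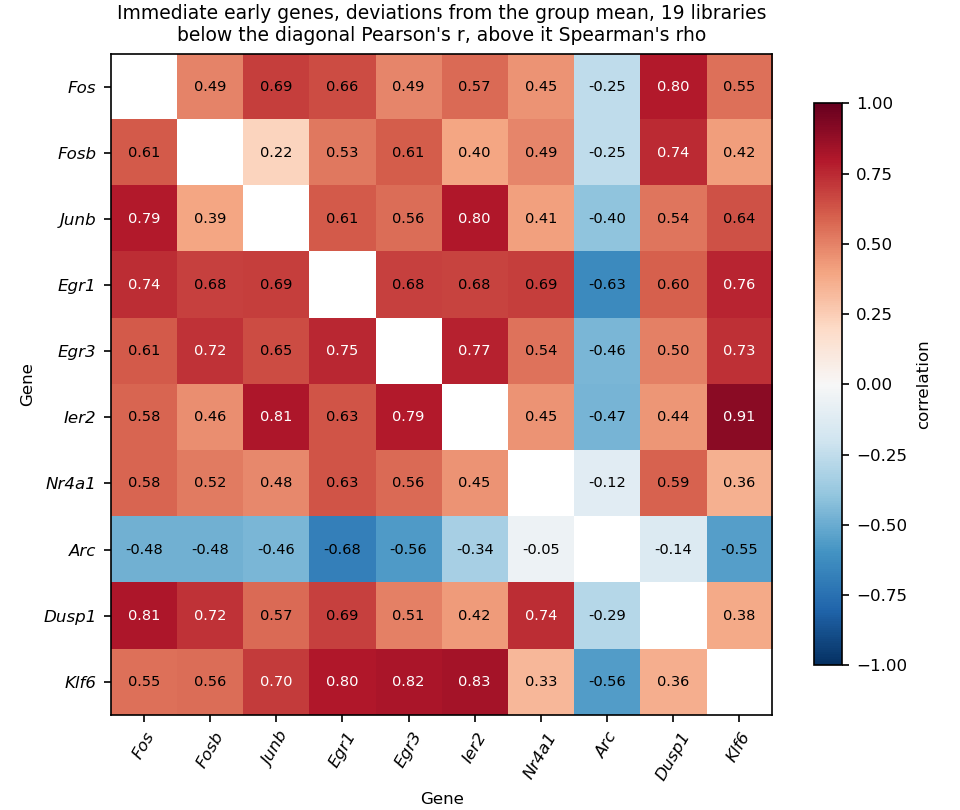
Correlation of the members' log2 CPM deviations from the group mean over 19 libraries, Pearson r below the diagonal and Spearman rho above it. The 9 pairs with negative r are all in the row or column of Arc, and the remaining 36 are positive.

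The other genes of the immediate early class were called in both directions. Over all tested genes, AP20187 calls were 11.3% higher and 12.4% lower in DMM mice, and 8.61% higher and 2.57% lower in naive mice, and the list counts below stand against these shares. Of 16 tested transcription factors of the class that are not members, 3 were higher with AP20187 in DMM mice and 2 lower, a share near that of all genes, with a median log2FC of 0.15: Csrnp1 (1.74, edgeR adjusted p = 0.000319), Fosl2, an AP-1 subunit (1.36, edgeR adjusted p = 0.00615), and Myc (1.09, edgeR adjusted p = 0.00246) rose. Egr2 (-0.81, edgeR adjusted p = 0.0391), which is also 1 of the 4 myelinating Schwann cell markers of 9 that were lower in that comparison (median -0.68), and Jund, an AP-1 subunit expressed without a stimulus (-0.72, edgeR adjusted p = 0.0333), fell, and Jun did not pass (-0.40, edgeR adjusted p = 0.148). In naive mice 4 of the 16 were higher and 0 lower, led by Fosl2 (1.33), Atf3 (1.10) and Csrnp1 (1.07), with edgeR adjusted p of 0.0152, 0.00984 and 0.0158.

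Of 22 tested immediate early effector genes, 9 were higher and 3 lower with AP20187 in DMM mice, with a median log2FC of 0.33. Ptgs2, the inducible cyclooxygenase (2.22, edgeR adjusted p = 0.00706), Ccn1, a matrix protein (2.20, edgeR adjusted p = 0.0132), and Zfp36, which destabilizes cytokine mRNA (1.52, edgeR adjusted p = 0.0175), rose. Nptx2, a neuronal pentraxin (-1.41), Dusp5 (-1.40) and Dusp4 (-0.87), phosphatases of nuclear ERK, fell, with edgeR adjusted p of 0.0426, 0.00652 and 0.0154. Bdnf, a neurotrophin and activity-induced gene of neurons, was at -0.14 (edgeR adjusted p = 0.875). In naive mice 6 were higher and 0 lower, with the same 3 leading: Ptgs2 (2.69), Ccn1 (2.13) and Zfp36 (1.46), with edgeR adjusted p of 0.00543, 0.0305 and 0.04.

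Upstream of the members, genes for kinases of calcium and cAMP signalling were lower in DMM mice given AP20187: 8 of 15 fell and 0 rose, with a median log2FC of -0.91, led by Camk4 (-1.38), Camk2a (-1.32) and Prkaca (-1.10). In the same comparison 10 of 15 pan-neuronal markers were lower, and their part in the kinase values was not tested. In naive mice 0 of the 15 were called by edgeR, 5 had an unadjusted p under 0.05, and the median was -0.60. Of 16 regulators of the SRF and CREB families 7 rose and 1 fell in DMM mice (median 0.25); Mrtfa (1.34), an SRF coactivator, Atf1 (1.25) and Srf (1.16) led, and Mef2c (-0.50) fell. In naive mice Atf1 (1.28) and Mrtfa (0.95) rose and none fell. MAP kinase genes were split in DMM mice (median -0.28), with 3 of 18 higher (Rps6ka1 2.25, Map2k3 1.03 and Mapk14 0.71) and 4 lower (among them Mapk9 -1.05, Mapk3 -0.86 and Map2k1 -0.52), and in naive mice Rps6ka1 (2.07) and Map2k3 (1.01) were higher.

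Other stimuli that induce members were followed through their target genes. Of 13 glucocorticoid-responsive genes 7 were higher with AP20187 in DMM mice (median 0.50) and 5 in naive mice, and 0 were lower. Lcn2 led in both (3.59 and 4.43), followed by Nfkbia (1.46) and Mt2 (1.31) in DMM mice and by Mt2 (1.93) and Mt1 (1.40) in naive mice; Lcn2 is also on the neutrophil list. Heat shock and stress genes did not rise together: of 12, 1 was higher (Hspa5, 0.92) and 3 were lower (Bag3 -1.21, Hspb1 -0.84 and Ddit3 -0.65) in DMM mice (median -0.32), and in naive mice Hspe1 (1.21) and Hspa5 (0.50) were higher and Hspb1 (-0.60) lower. Of 14 clock genes 6 were lower in DMM mice, led by Dbp (-1.41), Ciart (-1.32) and Nr1d1 (-1.12), and Cry1 was higher (0.76), while in naive mice 0 of 14 passed with edgeR and 7 had an unadjusted p under 0.05. The medians were -0.40 and -0.34. Of 13 nerve injury genes, Csf1 (0.94) rose and Gap43 (-1.12) fell in DMM mice, and Nts (1.14), Atf3 (1.10) and Csf1 (1.00) rose in naive mice. Between DMM and naive mice, edgeR called 0 genes of these pathway lists with either injection; at an unadjusted p under 0.05 a list held 0 to 3 genes with vehicle and 0 to 5 with AP20187. Some genes stand on more than 1 list, among them Atf3, Egr2, Jun, Per1 and Sgk1.

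The genes whose log2 CPM followed the members' mean most closely over the 19 libraries, given as a description, were Sik1 (Pearson r 0.93), Fibin (0.92), Ccn1 (0.91), Sfrp4 (0.89), H19 (0.88), Fosl2 (0.88), Tmem119 (0.88), Esm1 (0.88), Pi16 (0.88) and Amotl2 (0.87). Sik1, a salt-inducible kinase gene, was at a mean of 26.1 CPM in DMM AP20187 mice, 14.0 in DMM vehicle mice, 21.8 in naive AP20187 mice and 14.8 in naive vehicle mice. Over single members the closest gene was Aldh2 for Ier2 (0.99), Elf2 for Klf6 (0.99), R3hdm4 for Junb (0.97), Epha10 for Arc (0.95), Ccn1 for Egr1 (0.90), Tmem185b for Fos (0.89), Crip1 for Egr3 (0.88), Svep1 for Fosb (0.87), Pde6a for Nr4a1 (0.80) and the immunoglobulin segment Igkv10-96 for Dusp1 (0.70). The libraries share groups and cell makeup, which enter these r.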

How the data were processed

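The data were poly(A) RNA sequencing of 19 mouse DRG libraries made with a stranded kit, per the labels. The deposited tables hold raw counts, 1 value a gene and library, and a further deposited table adds FPKM, the authors' fragments per length and depth. The counts of the members were equal in both tables. The submitters' processing notes name cutadapt, HISAT2, StringTie and the build GRCm39; their versions and the annotation release are not given in the sources used here. The test on counts was the two-sided quasi-likelihood test of edgeR 4.0.16 (R 4.3.3), with TMM scaling and filterByExpr (minimum count 10), in 1 model of 4 groups with 15 residual degrees of freedom and 5 contrasts. The log2 CPM used a prior count of 2. Alternatives were DESeq2 1.42.0, other scalings, no filter, limma 3.58.1 on log2(FPKM + 1) or log2(FPKM + 0.1), other sets of vehicle mice and leaving out each library.

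The members and all gene lists were chosen with earlier results of these data known. All 10 members were named. Of each other list, up to 3 genes higher and 3 lower with the largest log2FC were named, among called genes whose mean reached 1 CPM in some group; Jun and Bdnf were named after their values were seen. Correlations with the 14 other marker lists were added after the main results. The genes most like the members were those with the largest Pearson r among genes whose mean reached 1 CPM. In simulated counts of the DMM treatment contrast (22778 genes), the test recovered 16% of 100 genes changed 2-fold and 63% of 100 changed 4-fold, with 3 false calls. The simulation changed a far smaller share of genes than the 23.8% called in the data. The Benjamini-Hochberg cutoff is stricter when fewer genes differ, so these shares are not the recovery to expect in the data.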

Additional observations from a re-analysis of the deposited data

Results flagged for a closer look

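Of 40 sets of values examined (10 members in 4 groups), 3 held a mouse far from the rest of its group by Dixon's criterion, and chance flags about 1 in 20 such sets. Fos was at 13.6 CPM in DMM vehicle mouse 64, against 3.73 to 5.54 CPM in the other 4, a gap of 0.817 of the group's range. Fos was at 34.6 CPM in naive AP20187 mouse 3, against 7.66 to 10.9 CPM in the other 3, a gap of 0.881 of the range. Nr4a1 was at 24.1 CPM in naive AP20187 mouse 1, against 40.0 to 43.0 CPM in the other 3, a gap of 0.842 of the range. Mouse 64 had the highest neutrophil marker score of its group (7.93) and its lowest pan-neuronal score (7.75, the others 9.01 to 9.39), and naive AP20187 mouse 3 had the lowest pan-neuronal score of its group (6.87). The part of these scores in the Fos values was not tested.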

How the results depend on the processing

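The 6 called member results were refitted 113 times under other settings: 83 refits kept the call, 30 lost it and 0 turned the sign. Of 877 refits of the 44 results not called, 11 gained a call and 73 turned the sign. Among DMM mice, 5 members were called with AP20187, 3 with no filter (Fosb 1.30 and Ier2 1.43 were lost), 4 with the 2 groups alone (Ier2 was lost, edgeR adjusted p = 0.0689), 1 against vehicle mice 63 and 64 only, and 2 to 6 when 1 library was left out; the 5410 genes called became 1156 against mice 63 and 64, 8450 against mice 32 to 34, and 3212 to 7677 with 1 library left out. Among naive mice, 1 member was called, 2 with DESeq2 (Fos and Junb), 2 with the 2 groups alone (Ier2 and Junb) and 0 to 2 with 1 library left out; the 2548 genes called became 4356 with DESeq2, 4147 on log2(FPKM + 1), 4225 on log2(FPKM + 0.1) and 994 to 3452 with 1 library left out. Between DMM and naive vehicle mice, using mice 63 and 64 only gave 1 member (Ier2, 1.61, edgeR adjusted p = 0.0485) and 541 genes, and leaving out 1 library gave 0 throughout. Between DMM and naive AP20187 mice, both FPKM scales gave 1 member, and the 160 genes became 1109 with DESeq2, 73 with no filter, 1220 and 1011 on the FPKM scales and 43 to 269 with 1 library left out. For the interaction the 26 genes became 224 with DESeq2, 13 with no filter, 56 on log2(FPKM + 1), 90 with mice 63 and 64 and 12 to 57 with 1 library left out. Log2(FPKM + 0.1) shifted the median log2FC of all genes by -0.141, to -0.208, in the naive treatment comparison, by 0.152, to 0.143, between AP20187 groups and by 0.181, to 0.101, in the interaction (by 0.128, to 0.048, on log2(FPKM + 1)). The cause of these shifts was not tested.

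The naive mice shared numbers between treatments. Correlations of deviations between mice of the same number were 0.0235, 0.301, -0.0822 and 0.1833 for numbers 1, 3, 4 and 5. Between unlike numbers they ran from -0.2619 (AP20187 mouse 3, vehicle mouse 2) to 0.1987 (AP20187 mouse 3, vehicle mouse 4). With 4 same-number values, whether the numbers pair the mice could not be settled. The fit with the number as a replicate block called 1 member (Ier2, 1.19; Junb, 1.06, was lost) and 2352 genes; the same 8 libraries unblocked, a setting chosen after seeing the data, gave 1 member (Junb) and 1388 genes.

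Sign turned only in results not called. For AP20187 in DMM mice these were Egr3 at 0.36 against mice 32 to 34, Nr4a1 at -0.071 and -0.088 on the FPKM scales and -0.46 against mice 63 and 64, and Dusp1 at -0.066 against mice 63 and 64; with 1 library left out Egr3 ran from -0.29 to 0.20, Nr4a1 from -0.30 to 0.31 and Dusp1 from -0.077 to 0.38. For AP20187 in naive mice Dusp1 was at -0.10 and -0.13 on the FPKM scales and ran from -0.089 to 0.33 with 1 library left out. Between vehicle groups, using mice 32 to 34 gave Fos -0.30, Junb -0.28, Egr1 -0.34, Egr3 -0.29, Ier2 -0.49, Nr4a1 -0.27, Dusp1 -0.12 and Klf6 -0.10, and mice 63 and 64 gave Fosb 0.017. There, leaving out 1 library gave Fos -0.29 to 0.33, Fosb -0.52 to 0.15, Junb -0.12 to 0.28, Egr1 -0.19 to 0.29, Egr3 -0.13 to 0.33, Ier2 -0.066 to 0.94, Nr4a1 -0.053 to 0.36, Dusp1 -0.085 to 0.21 and Klf6 -0.022 to 0.18, each lowest without DMM vehicle mouse 64. Between AP20187 groups Egr1 was at 0.07 and Nr4a1 at 0.017 with library totals, and Egr1 at 0.32 and 0.39 on the FPKM scales; leaving out 1 library gave Fosb -0.038 to 0.62, Egr1 -0.28 to 0.69, Egr3 -0.51 to 0.023, Nr4a1 -0.42 to 0.12 and Dusp1 -0.11 to 0.36. In the interaction mice 63 and 64 gave Fos -0.28, Ier2 -0.72, Dusp1 -0.23 and Klf6 -0.093, mice 32 to 34 gave Egr1 0.32 and Nr4a1 0.20, and the FPKM scales gave Egr1 0.25 and 0.31; leaving out 1 library gave Egr1 -0.35 to 0.63, Ier2 -0.045 to 0.96 and Dusp1 -0.21 to 0.29.

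Total depth was alike in all libraries, and the lowest member value, Arc in naive AP20187 mouse 3, stood on 4 counts. The 4 or 5 mice a group left wide intervals, for example 0.74 to 2.67 for Fos in DMM mice.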
